A study of Mus musculus with 4 samples.

Results

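The pluripotency factor genes described here are Pou5f1, Nanog, Sox2, Klf4, Mycn, Lin28a, Sall4, Esrrb, Zfp42 and Utf1. They were chosen by name, as 10 of 32812 genes with a symbol, and not from their values, though with earlier results of these data known. The libraries came from female germline stem cells, which are cultured cells from mouse ovary kept for more than 20 passages. The cells were of strain C57BL/6, and all 4 libraries share this background. A pair of control libraries and a pair of libraries treated with SPD (spermidine, a polyamine studied as an inducer of autophagy) were made at 4 h. Neither the dose nor the culture that each library came from is stated in the labels. The spread behind every p-value is therefore that between 2 libraries of a group, and it may be technical.

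Pluripotency is the ability of a cell to form every lineage of the embryo. In embryonic stem cells it is held by transcription factors that bind DNA together and activate each other's genes, with OCT4 (from Pou5f1), SOX2 and NANOG at the centre, and KLF4, ESRRB, SALL4 and the N-MYC protein around them. The RNA-binding protein LIN28A, the zinc finger protein REX1 (from Zfp42) and the chromatin protein UTF1 are widely used markers of that state. Several of the genes are not confined to it. Pou5f1 is also transcribed in germ cells and oocytes, Klf4 in fibroblasts and epithelia, and Mycn in many dividing embryonic cells.

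The control libraries held 7206176 and 7128901 counts, against 787600 and 1718944 in spermidine replicates 1 and 2, so a floor of 3 counts, as CPM (counts scaled to a common library total), is 0.416 and 0.421 for control replicates 1 and 2 and 3.81 and 1.75 for spermidine replicates 1 and 2. Spermidine replicate 1 stood apart. Of 1469 olfactory and vomeronasal receptor genes, which outside sensory neurons are largely silent, 871 had a count there, against 25, 63 and 124 in control replicates 1 and 2 and spermidine replicate 2. These receptors carried 3.18 counts per kb of own exonic bases in spermidine replicate 1, and 0.0637, 0.154 and 0.175 in the other 3 libraries in the same order. Own bases are those that no other transcript row of the deposited table covers, and they are almost the only bases that drew counts. Ddx4, the germ cell helicase that defines the lineage, had 1 count in all, in spermidine replicate 1, on 434 own bases. Of 9 germ cell markers 4 were tested, and they went both ways. Tex19.1, a germline gene also active in pluripotent cells, made up most of the list's control counts with 1955 and 1770, or 271 and 248 CPM, and fell with spermidine, where it had 36 and 25 counts, or 45.7 and 14.5 CPM (log2 fold change -3.25 ± 0.63, adjusted p = 0.00749, edgeR). Ifitm3, Dppa3 and Dppa5a were called higher, and the last 2 reached the minimum of the filter on low counts, 2.26 CPM, in no control. Markers of haematopoietic cells summed to 2089 and 1521 CPM in the controls and to 330 and 84.9 CPM with spermidine. Plek alone held 7913 and 5844 of the 15051 and 10844 control counts. Of 7 tested markers 5 were called lower, beside 3.99% of all tested genes, while Tyrobp and Coro1a were not called. Ptprc had 0 control counts and 3 in spermidine replicate 1, and Spi1 and Laptm5 had 0 counts throughout, on 196, 407 and 85 own bases. Intervals given below are 95% intervals for counting error only.

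How much of each gene could be counted differed widely. Sox2, Klf4, Mycn and Utf1 have a single transcript row each, and all of their 2467, 3044, 2596 and 1160 exonic bases were their own. The other 6 genes are split over several rows that share most exons, and only their differing parts could draw counts. Nanog kept 28 bases and Sall4 210, so their low counts say little about expression. Pou5f1 kept 542, Zfp42 963, Esrrb 1200 and Lin28a 1619. For Lin28a, Esrrb, Zfp42 and Sall4 these bases are mainly alternative first exons, many of them predicted and lying in introns of the curated transcripts.

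**Figure D1:**
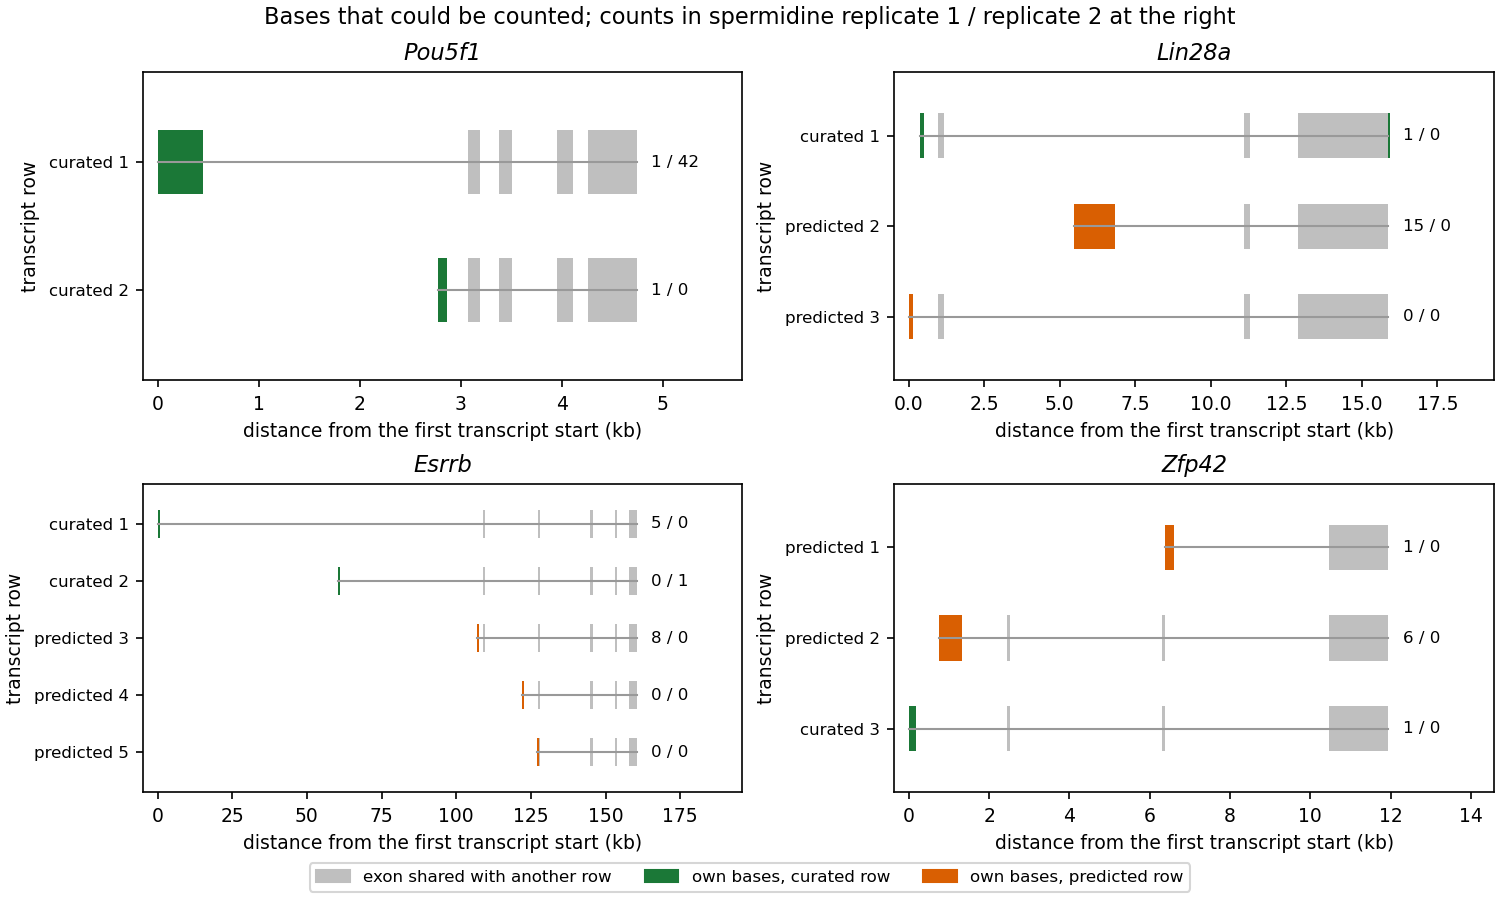
Transcript rows of Pou5f1, Lin28a, Esrrb and Zfp42, with distance from the first transcript start in kb on the horizontal axis, exons as boxes and own bases in colour, and counts of spermidine replicates 1 and 2 at the right. The 42 counts of Pou5f1 lie on the first exon of the longer row, while 15 of 16 Lin28a counts lie on a predicted exon inside an intron of the curated transcript.

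Among Pou5f1, Sox2 and Nanog, only Pou5f1 had more than a few counts. Pou5f1, which encodes the POU-domain factor OCT4, had 0 and 0 counts in the controls, 2 in spermidine replicate 1 and 42 (interval 30.3 to 56.8) in spermidine replicate 2. Both controls were thus at 0 and almost all counts came from 1 library. All 42 were on 452 own bases, the first exon of the longer row (chr17:35506032-35506483, GRCm38, plus strand). The shorter row, which starts downstream on 90 own bases, had 1 count in spermidine replicate 1 and 0 elsewhere. The opening 300 coding bases of that first exon (chr17:35506100-35506399) are shown because they lie in the segment that held the 42 counts, whose places within it are not known, with the start codon in capitals.
Pou5f1 coding start: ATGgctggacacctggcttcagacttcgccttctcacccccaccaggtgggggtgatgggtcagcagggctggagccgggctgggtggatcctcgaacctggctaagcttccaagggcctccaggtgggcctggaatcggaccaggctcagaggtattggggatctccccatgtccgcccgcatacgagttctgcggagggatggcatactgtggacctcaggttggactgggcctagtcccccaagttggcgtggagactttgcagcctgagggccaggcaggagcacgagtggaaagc

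Pou5f1 was called higher with spermidine (adjusted p = 0.00749, edgeR quasi-likelihood fit, Benjamini-Hochberg over all tested genes). Both controls were at 0, and Pou5f1 entered the test because spermidine replicates 1 and 2 (2.54 and 24.4 CPM) reached the filter's minimum of 2.26 CPM. The p-value therefore does not by itself show a group change. Pooled over libraries by their totals, Pou5f1 with spermidine was 83.9 times the level of a floor of 3 counts over the controls. That value is no lower bound, and spermidine replicate 2 supplied 42 of the pooled counts. The call rested on unequal libraries. In spermidine replicate 1 the receptor rate gives 1.72 counts on the own bases of Pou5f1, beside the 2 observed. In spermidine replicate 2 it gives 0.0949, beside 42. Of 1291 receptor genes with at least 300 own bases, 0 reached the 77.5 counts per kb of Pou5f1 in spermidine replicate 2, and 389 (30.1%) reached its 3.69 in replicate 1. With the receptor rate subtracted Pou5f1 had 0 and 42 spermidine counts and no longer passed the low-count filter. Adjusted p was 0.325 without a low-count filter and 0.00583 with RLE scaling factors, by the same edgeR test, and 0.000121 by DESeq2. Leaving out a library kept or lost the call depending on which one. Without spermidine replicate 2 the log2 fold change was still 6.56, on the 2 counts of replicate 1 against 0 and 0. Among all genes with a symbol, 32 had 0 counts in both controls and at least 40 in spermidine replicate 2.

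Sox2, the HMG-box partner of OCT4, had 0 and 4 control counts and 1 and 3 spermidine counts on 2467 own bases. The libraries of the groups overlapped in counts, and all 4 values were small. In CPM the values were 0 and 0.561 for control and 1.27 and 1.75 for spermidine, a pooled ratio of 5.72 with a wide interval of 1.07 to 30.7. The single count in spermidine replicate 1 was below the 7.84 counts that the receptor rate gives there. Sox2 did not pass the low-count filter and was not tested. Nanog, the homeobox factor, had 0 counts in all 4 libraries. On its 28 bases a floor of 3 counts is 107 counts per kb, above the level of every other member in every library except Mycn in spermidine replicate 2 (131 counts per kb), so a silent and an active Nanog could not be told apart.

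Mycn and Klf4 were the members with most counts. Mycn, the MYC-family factor of progenitor cells, had 6 and 1 control counts, 12 in spermidine replicate 1 and 341 (interval 306 to 379) in spermidine replicate 2. In CPM these were 0.833 and 0.14 against 15.2 and 198. Both spermidine libraries were above both controls, with replicate 2 far above replicate 1. Mycn was called higher by 7.93 ± 1.43 (SE, n = 2 per group) on the log2 scale (adjusted p = 0.00652, same edgeR fit), and its pooled ratio was 288 (interval 139 to 723). Its controls were also below the filter's minimum of 2.26 CPM, so the limit given for the p-value of Pou5f1 holds here too. The 12 counts of replicate 1 stood beside 8.25 from the receptor rate, and 302 of 1291 receptor genes (23.4%) had as many or more per kb. In replicate 2 the 131 counts per kb of Mycn exceeded all 1291. Without spermidine replicate 2 the log2 fold change of Mycn was 4.74, and without replicate 1 it was 8.84. Such fits have 1 spermidine library and take their spread from the controls alone, so no test is given for them. Leaving out a control kept or lost the call depending on which one, and the call was lost without a low-count filter (adjusted p = 0.267, edgeR).

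Klf4, a zinc finger factor that keeps embryonic stem cells undifferentiated and is also active in many somatic cells, was counted in every library. It had 14 and 162 control counts against 45 and 157 with spermidine. In CPM these were 1.94 and 22.7 against 57.1 and 91.3. Both spermidine libraries were above both controls, but control replicate 2 was 11.7 times as high as control replicate 1, while the spermidine libraries were 2.51 and 4.02 times as high as control replicate 2. The log2 fold change was 2.70 ± 0.97, and Klf4 was not called (adjusted p = 0.0698, edgeR with Benjamini-Hochberg adjustment). DESeq2 called it (adjusted p = 0.0217), as did edgeR with each library thinned to 554572 counts (4.47 ± 0.79, adjusted p = 0.00482). The thinning was a single random draw, which left Klf4 with 2 and 4 control counts and 45 and 75 spermidine counts. The gap between the controls was thus largely lost in that draw, and other draws were not made. At full depth the log2 fold change depended on the control kept. It was 5.31 ± 1.62 without control replicate 2 and 1.87 ± 1.20 without control replicate 1. The summed level of 8 stroma and fibroblast markers rose in the same order of libraries as Klf4, with steps of other sizes. It was 71.6 and 174 CPM in control and 2255 and 8357 CPM in spermidine libraries. Collagens led it: Col1a1, Col1a2 and Col3a1 held 3401, 4106 and 6477 of its 14366 counts in spermidine replicate 2. Of 7 tested markers 4 were called higher and 0 lower, beside 24.8% and 3.99% of all tested genes. Dcn, Pdgfra and Thy1 were not called, and Pdgfrb had 2 and 0 control counts and 0 with spermidine. The same order of libraries held for oocyte, granulosa and epithelium markers, so it was not particular to stroma. Epithelium markers summed to 0.555 and 2.52 CPM in control and to 160 and 240 CPM in spermidine libraries. The part of any of these markers in the Klf4 values was not tested.

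**Figure D2:**
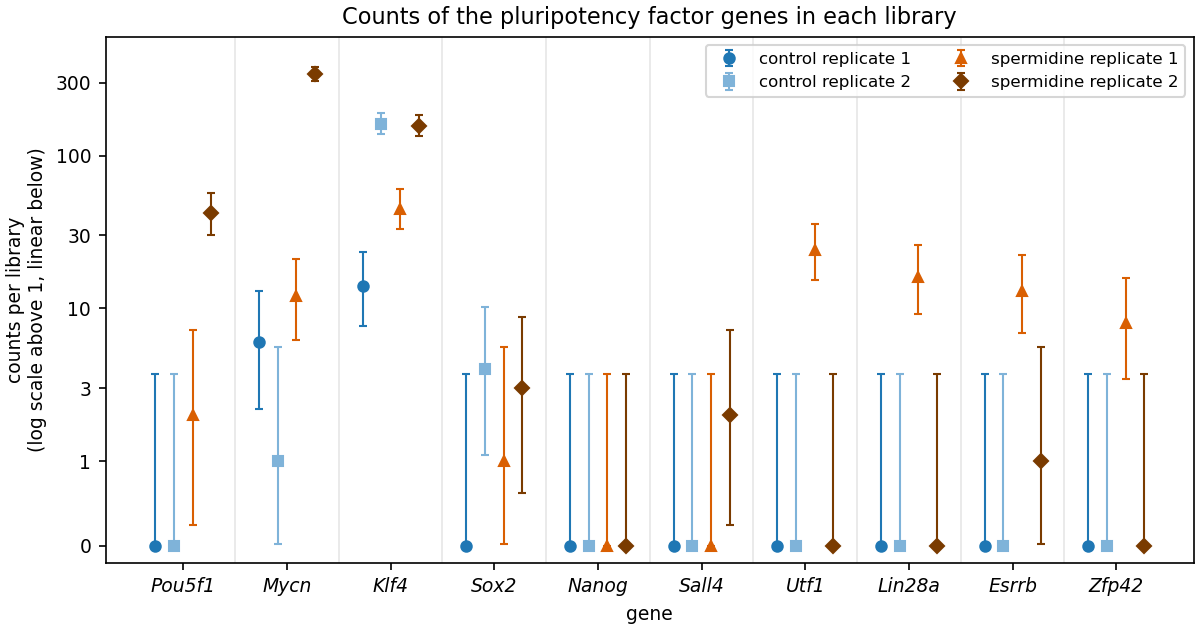
Counts of each pluripotency factor gene per library (log scale above 1 and linear below), with 95% counting intervals as bars. Pou5f1 and Mycn were highest in spermidine replicate 2 with 42 and 341 counts, while Utf1, Lin28a, Esrrb and Zfp42 were counted almost only in spermidine replicate 1.

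Of the 10 genes only these 3, Pou5f1, Mycn and Klf4, passed the low-count filter, and 2 were called higher and 0 lower. Over all 7836 tested genes, 24.8% were called higher and 3.99% lower, and the median log2 fold change was 0.23. Pou5f1 and Mycn passed the filter through the spermidine libraries, so their count is a description and not support for a group change. Without any filter 9 of the 10 genes were tested and 0 were called by edgeR, 2 of them at an unadjusted p under 0.05.

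Utf1, Lin28a, Esrrb and Zfp42 shared another pattern. Utf1, a chromatin-bound marker of undifferentiated cells, had 24 counts (interval 15.4 to 35.7) in spermidine replicate 1 and 0 in each of the other 3 libraries. Lin28a, which binds let-7 precursors and blocks their maturation, had 16 (9.15 to 26.0) and 0 in the others. Zfp42, the REX1 gene, had 8 (3.45 to 15.8) and 0 in the others. Esrrb, an orphan nuclear receptor that can stand in for NANOG in embryonic stem cells, had 13 (6.92 to 22.2) in spermidine replicate 1, 1 in replicate 2 and 0 in the controls. In spermidine replicate 2, the deeper of the treated libraries, none of the 4 genes exceeded 1 count. None passed the low-count filter, so no test was made.

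Having any count in spermidine replicate 1 alone was common among all genes, and the share fell at higher counts. Of 32812 genes with a symbol, 7142 (21.8%) had counts in spermidine replicate 1 and 0 in the other 3 libraries. With at least 8 counts there, as for Utf1, Lin28a and Zfp42, the number was 1822 (5.55%), and with at least 20, as for Utf1, it was 245 (0.747%). Per kb of own bases, spermidine replicate 1 held 20.7 counts for Utf1, 10.8 for Esrrb, 9.88 for Lin28a and 8.31 for Zfp42, against a receptor rate of 3.18 and a receptor median of 1.94. These levels were 6.51, 3.41, 3.11 and 2.62 times the receptor rate. Of 1291 receptor genes, 8 (0.62%) had as many or more per kb as Utf1, 66 (5.11%) as Esrrb, 77 (5.96%) as Lin28a and 125 (9.68%) as Zfp42. Esrrb, Lin28a and Zfp42 lay below the 95th percentile of the receptors, 11.0 counts per kb, and Utf1 and Klf4 (14.8) lay between it and the highest receptor (33.4). Transcript base composition differed too: GC content was 63.5% for Utf1, 46.4% to 54.9% for the other 3, and at the median 39.1% for 1261 matched receptor genes. Its part in these rates was not tested.

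**Figure D3:**
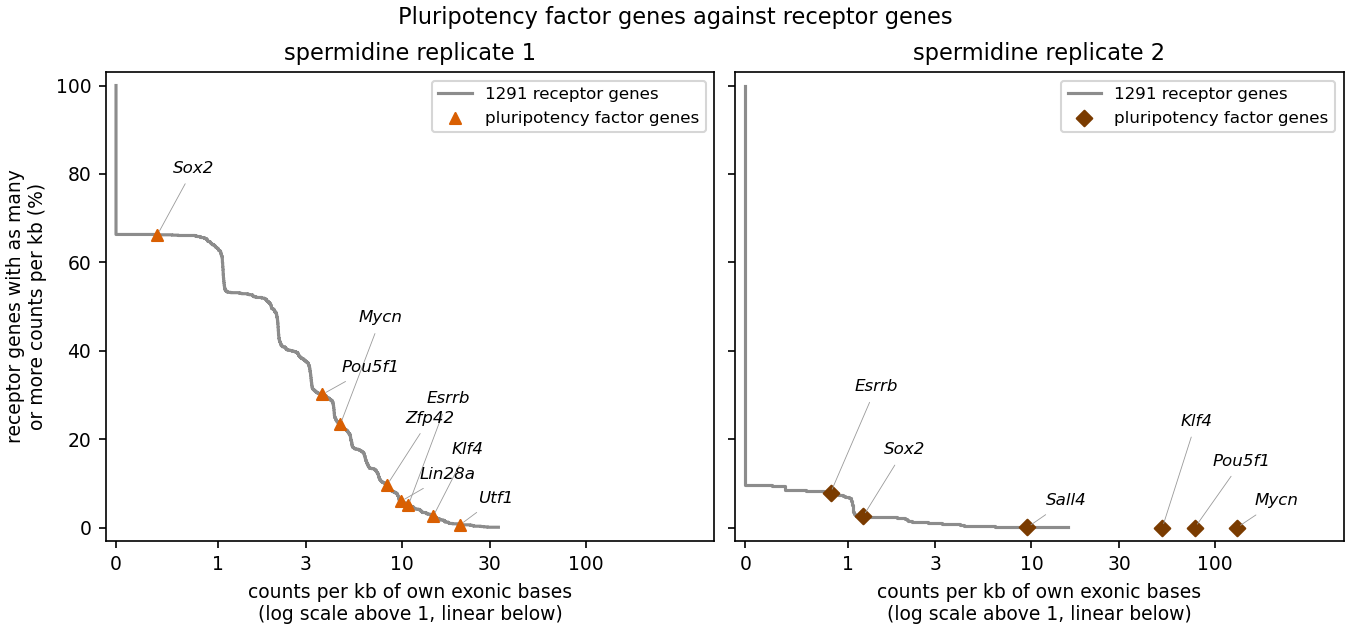
Share of 1291 receptor genes (vertical axis, percent) with as many or more counts per kb of own exonic bases (horizontal axis, log scale above 1 and linear below) in each spermidine library, with the pluripotency factor genes that had a count as points. Each point's height is read from the receptor curve at that gene's level. In replicate 1 the share runs from 66.2% of receptors at or above Sox2 to 0.62% at or above Utf1, and in replicate 2 Klf4, Pou5f1 and Mycn lie beyond all receptors.

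Where the counts lay could be read for the genes with several rows. For Lin28a, 15 of 16 counts in spermidine replicate 1 were on a predicted first exon of 1368 own bases (chr4:134012372-134013739, minus strand), which lies in an intron of the curated transcript. The 118 own bases of the curated row held 1. For Zfp42, 6 of 8 were on a predicted first exon of 568 bases (chr8:43305680-43306247, minus strand), also in an intron, and 1 was on the 169 own bases of the curated row. For Esrrb, 8 of 13 were on a predicted first exon of 116 bases (chr12:86468165-86468280, plus strand) in an intron, and 5 on the 366 own bases of the first exon of a curated row. Over these 3 genes, predicted rows held 30 counts on 2808 own bases, or 10.7 per kb, and curated rows held 7 on 974, or 7.19 per kb. Own segments this short can also draw reads that run past their ends, which raises counts per kb. Sall4, the spalt-family zinc finger factor, had counts only in spermidine replicate 2, where 2 fell on a predicted exon of 210 bases (chr2:168765094-168765303, minus strand) in an intron of its curated transcripts. Counts on such exons do not show the curated transcripts of Lin28a, Zfp42 or Sall4.

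Promoter bases from RefSeq (GRCm38.p6) were found for 9 of the 10 genes, all but Sall4. The 250 bases before the start are shown for Pou5f1 and Mycn, the genes called higher, and for Utf1 and Zfp42, counted only in spermidine replicate 1, on the strand of the gene with searched motifs in capitals. The motifs, on both strands, were the octamer ATGCAAAT bound by OCT factors, the SOX core ACAATG, the GC box GGGCGG, the E-box CACGTG and the ERR element AAGGTCA. Over 32851 promoter windows of this length, 1.6% held the octamer, 10.7% the SOX core, 32.7% the GC box, 6.02% the E-box and 4.08% the ERR element. Copies of the GC box can overlap each other, and none of the motifs contains another.
Pou5f1, chr17:35505782-35506031, plus strand: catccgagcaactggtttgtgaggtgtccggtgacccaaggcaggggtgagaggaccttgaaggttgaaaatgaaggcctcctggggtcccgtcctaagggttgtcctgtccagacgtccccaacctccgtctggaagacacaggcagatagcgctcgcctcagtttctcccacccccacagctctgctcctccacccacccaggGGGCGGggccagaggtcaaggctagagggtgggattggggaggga
Mycn, chr12:12941837-12942086, minus strand: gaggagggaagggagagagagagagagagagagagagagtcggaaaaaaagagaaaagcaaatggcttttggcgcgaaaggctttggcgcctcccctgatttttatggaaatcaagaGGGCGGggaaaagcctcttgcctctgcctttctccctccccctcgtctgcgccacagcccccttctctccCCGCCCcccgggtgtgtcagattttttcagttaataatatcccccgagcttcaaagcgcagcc
Utf1, chr7:139943606-139943855, plus strand: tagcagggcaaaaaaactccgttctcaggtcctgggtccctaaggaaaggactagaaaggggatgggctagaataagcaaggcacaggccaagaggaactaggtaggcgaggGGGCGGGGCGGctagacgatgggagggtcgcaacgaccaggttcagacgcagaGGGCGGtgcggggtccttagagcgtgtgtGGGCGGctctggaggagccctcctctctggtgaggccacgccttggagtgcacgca
Zfp42, chr8:43307010-43307259, minus strand: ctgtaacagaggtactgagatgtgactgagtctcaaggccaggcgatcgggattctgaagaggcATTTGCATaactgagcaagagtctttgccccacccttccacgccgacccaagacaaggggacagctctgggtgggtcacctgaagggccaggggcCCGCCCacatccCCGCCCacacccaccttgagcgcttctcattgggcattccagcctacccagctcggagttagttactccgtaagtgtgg

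The Zfp42 window was the only one of 12 member windows with an octamer, written as its reverse complement ATTTGCAT, and it held 2 GC boxes. This window lies before the start of the curated row, which held 1 of the 8 Zfp42 counts, and not before the predicted row with 6. Utf1 held 4 GC boxes, Klf4 4 with an E-box, Mycn and Sox2 2 each, and the upstream start of Pou5f1 1. A SOX core lay in the windows of Lin28a and Nanog and in that of the downstream start of Pou5f1. No ERR element was found in these windows. GC boxes lay in windows of called genes and of genes counted only in spermidine replicate 1. A match is a description of the sequence and not a binding site.

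A wider set of 41 genes of the pluripotency network was read from the same fit. It holds other factors of embryonic stem cells, developmental pluripotency associated genes, receptors of the LIF pathway, and chromatin partners. Of 12 tested genes, 6 were called higher and 0 lower, beside 24.8% and 3.99% of all tested genes. All 6 called genes reached the filter's minimum of 2.26 CPM in no control, so they passed through the spermidine libraries and their number is a description only. The other 6 tested genes, Dnmt3a, Il6st, Klf2, Klf5, Trim28 and Trim71, reached it in a control, and 0 of them were called. Lifr, the receptor for the self-renewal cytokine LIF, had 3 and 14 control counts against 31 and 86 and rose by 5.28 ± 0.90 (adjusted p = 0.00627, edgeR with Benjamini-Hochberg adjustment). Mycl, a MYC-family gene, had 1 and 1 against 3 and 15. Nr5a2, a nuclear receptor that can activate Pou5f1 and is strongly expressed in granulosa cells, had 0 and 0 against 6 and 47. Both spermidine libraries were above both controls for these 3 genes, and replicate 2 held most counts. The other genes called higher, chosen after their values were seen, were Dppa5a with 2 and 119 spermidine counts, Dppa2 with 19 and 11 and Nr0b1 with 12 and 18, each with 0 in both controls.

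The network genes with at least 100 counts in both controls were not called in the fit of all 4 libraries. Trim28, a chromatin corepressor of retroelements present in most cells, had 11363 and 8261 control counts and 266 and 1753 spermidine counts, a log2 fold change of -0.87 ± 0.71 (adjusted p = 0.395, edgeR). Without spermidine replicate 2 the log2 fold change of Trim28 was -2.17, in a fit that took its spread from the controls alone. Trim71, a stem cell ubiquitin ligase and let-7 target, had 143 and 138 against 19 and 25, or 19.8 and 19.4 CPM against 24.1 and 14.5 (log2 fold change -0.06 ± 0.69). Il6st, which encodes the signalling chain gp130 of the LIF receptor, had 314 and 906 against 165 and 626 (1.85 ± 0.69, adjusted p = 0.0764, edgeR). Il6st was called higher by DESeq2 (adjusted p = 0.0315), and by edgeR with upper-quartile factors (0.0332) and at equal depth (2.63 ± 0.58, adjusted p = 0.0103). The number of network genes with any count was 12 and 13 in the controls, 28 in spermidine replicate 1 and 15 in replicate 2. As shares of the 41 these are 29.3%, 31.7%, 68.3% and 36.6%, close to the 35.5%, 36.2%, 62.6% and 33.5% of all genes with a symbol. Myc and Stat3 have 0 own bases and could not be counted. Network genes called higher numbered 4 of 10 with the receptor rate subtracted, beside 1257 of all 7007 genes tested there. At equal depth they numbered 2 of 5, beside 780 of all 4092. Without a low-count filter they numbered 0 of 32, beside 0 of all 29023. With a library left out their number moved both ways, as it did over all genes, and no network gene was called without control replicate 1.

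Markers of other ovarian cells were also higher in the spermidine libraries. The 10 pluripotency factor genes summed to 2.78 and 23.4 CPM in the controls and to 154 and 318 CPM in spermidine replicates 1 and 2. Klf4 made up 70.0% and 97.0% of the control sums, and Mycn 62.5% of the sum in spermidine replicate 2. Of 11 oocyte markers, 3 and 7 had a count in the controls and 7 in each spermidine library, and their summed level was 1.39 and 2.67 CPM against 180 and 1962 CPM. All 6 tested oocyte markers were called higher (24.8% of all tested genes were), having passed the filter through the spermidine libraries, and Zp2, Nlrp5 and Nobox were at 0 in every library, on 42, 21 and 254 own bases. Of 10 granulosa markers, 6 and 5 had a count in the controls and 8 and 6 with spermidine, with 5.27 and 6.87 CPM against 583 and 5238 CPM, and all 6 tested were called higher, 5 of them below the filter's minimum in both controls. Amh and Amhr2 were at 0 throughout, the first with 0 own bases. Oocyte and granulosa levels were thus 10.9 and 8.99 times as high in spermidine replicate 2 as in replicate 1, in the same direction as Pou5f1 (2.54 and 24.4 CPM in replicates 1 and 2) and Mycn (15.2 and 198). Xist, the RNA of the inactive X chromosome, had 5 and 2 control counts and 114 and 588 with spermidine. The part of other cells in the values of Pou5f1 and Mycn was not tested, and in bulk RNA a change in cell makeup and a change in RNA per cell cannot be told apart.

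**Figure D4:**
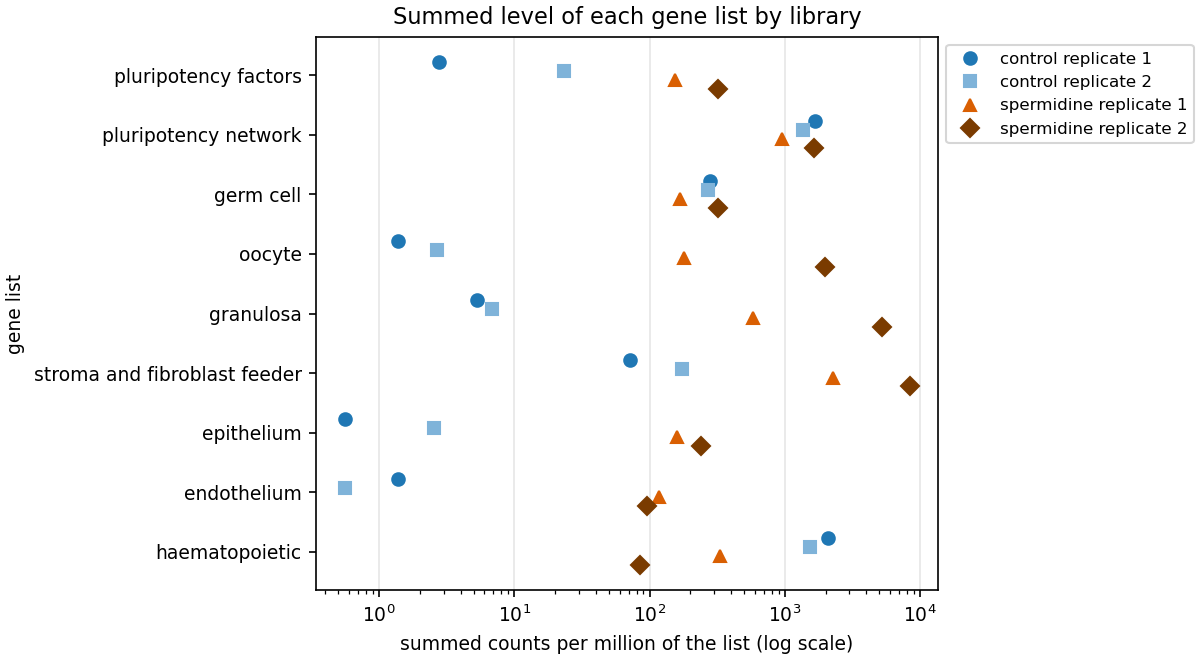
Summed CPM (log scale) of the 10 pluripotency factor genes, the wider network and each marker list, with 1 point per library. The pluripotency factor sum is 2.78 and 23.4 in the controls and 154 and 318 with spermidine. Oocyte, granulosa, stroma, epithelium and endothelium markers also lie higher in both spermidine libraries, while haematopoietic markers lie lower.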

How the data were processed

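The deposited tables hold raw whole-number counts that the authors made for each of 106519 RefSeq transcripts, listed with their exons, per the file headers. HISAT2, DESeq2 and the build mm9 are named in the submitters' processing notes with no roles, and no source used here names the counting program. A symbol was found in RefSeq's GRCm38 table for 86040 transcripts (80.8%). Of those, 88.5% lay inside the gene's span there, as did 24 of the 25 transcripts of the members, so positions are given as GRCm38. Counts were summed per symbol. Transcripts without own bases (49975) drew no more than 0.0014% of any library.

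Of the genes, 7836 passed filterByExpr (count minimum 10, total minimum 15). They were fitted in edgeR 4.0.16 under R 4.3.3 (TMM factors, glmQLFit with legacy off, glmQLFTest) on group alone, leaving 2 residual degrees of freedom, with the threshold for a call at 0.05 after Benjamini-Hochberg adjustment. Values after ± are the size of the log2 fold change over the square root of the edgeR F statistic, an approximate standard error. The fit was also run on simulated counts with the same dispersion for every library. That check cannot show how the fit handles spermidine libraries as unlike each other as these. The receptor rate is the counts on olfactory and vomeronasal receptor genes over their own bases. AY036118 took 29.6% and 30.7% of spermidine counts and 1.68% and 1.64% of control counts, and stayed in the totals except at equal depth. The members, lists and rule for named genes (all members, the 3 smallest p of the network in each direction, and network genes with at least 100 counts in both controls) were chosen with earlier results of these data known. Alternatives covered scaling, filter, DESeq2 1.42.0, a replicate block, left-out libraries, subtraction of the receptor rate and equal depth, and, added after seeing the data, the legacy edgeR test. Equal depth was a single random draw of counts from each library.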

Additional observations from a re-analysis of the deposited data

How the results depend on the processing

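The 1943 genes called higher and 313 called lower became 0 and 0 without a low-count filter (3208 and 1047 at an unadjusted p under 0.05 by edgeR, 1818 and 376 by DESeq2 with the filter), 1257 higher with the receptor rate subtracted, 780 and 83 at equal depth, and 94 lower with the replicate block. Leaving out each library gave 0 to 2517 higher and 0 to 1208 lower. Each 0 came from the fit without control replicate 1 (1733 and 193 at an unadjusted p under 0.05 by edgeR). Either fit with a lone control took its spread from the spermidine libraries, and genes were still called without control replicate 2. Either fit with a lone spermidine library took its spread from the controls. All of these fits kept the low-count filter chosen on all 4 libraries, so their calls are not independent of the library left out. Of the pluripotency factors, 2 were called higher, against 0 without a filter, 1 with the receptor rate subtracted, and 0 to 3 over the left-out libraries. With the replicate block 3 were called, Klf4 among them (3.24 ± 0.87, adjusted p = 0.039 by edgeR with Benjamini-Hochberg adjustment), and 1681 genes were higher. The labels do not say that the numbers pair libraries, and same-numbered libraries deviated together with a correlation across genes of -0.03. The cause of these differences was not tested. Klf4, Mycn and Pou5f1 kept their direction in every alternative in which they were tested. Pou5f1 was not tested at equal depth or with the receptor rate subtracted. Depth limits these results: 3 counts in spermidine replicate 1 are 3.81 CPM, above the level of Pou5f1 there.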

Other observations

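Some other network genes, picked out with their values in view, were also counted mainly in spermidine replicate 1. Tdgf1, the Nodal co-receptor gene, had 12 counts in spermidine replicate 1 and 0 in the other 3 libraries, or 18.5 counts per kb. Prdm14, a repressor needed for germ cell formation, had 11 and 0, or 4.24 counts per kb. Lefty2, a secreted Nodal antagonist, had 2 and 0 in the controls, 37 in spermidine replicate 1 and 0 in replicate 2, or 14.9 counts per kb in replicate 1. Dppa5a, the developmental pluripotency associated gene with 2 and 119 counts, had the opposite pattern, with 3.12 counts per kb in spermidine replicate 1, near the receptor rate of 3.18, and 186 in replicate 2.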
